A study of Mus musculus with 9 samples.

Results

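Immunoglobulin genes are the heavy and light chain genes from which antibodies are made, and this account follows their RNA in cultures of activated CD4+ T cells. The genes were chosen by annotation and depth: those that GENCODE M21 classes as immunoglobulin constant (C) or variable (V) genes and that had at least 15 counts summed over the 9 libraries. That gave 164 genes of the 55536 in the count table, 12 of them constant and 152 variable. Of 231 annotated C and V genes, 29 had no count in any library and 38 had between 1 and 14. Just inside the minimum, Ighv1-47, Ighv11-1, Igkv10-95 and Igkv18-36 had 15 counts each, and just outside it Ighv1-84, Ighv14-1 and Igkv1-99 had 14 each.

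RNA came from CD4+ T cells of the spleens of male mice of WT genotype, 6 to 12 weeks old. All 9 cultures were activated by beads with anti-CD3/anti-CD28, antibodies that engage the T cell receptor complex and a costimulatory receptor, and with 5 ng/mL of murine IL-2, a T cell growth factor. Over the same 18 h, 3 cultures received exosomes of ApoE-deficient BMDM (EKO_exo) and 3 received exosomes of wild-type BMDM (WT_exo), both at 2e+09 particles/mL, while 3 received PBS. Exosomes are small secreted vesicles, and BMDM commonly stands for bone marrow-derived macrophages. The design text calls the 3 replicates of a group biological, but no label ties a replicate to its own mouse. The p-values therefore speak of the spread among these cultures, which may be technical. The labels do not give the purity of the sorted cells.

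Each antibody heavy or light chain is encoded by a variable segment, joined in developing B cells to a J segment (and in heavy chains a D segment), and by a constant region. The constant gene of the heavy chain sets the class: Ighm for IgM, Ighd for IgD, the Ighg genes for IgG, Igha for IgA and Ighe for IgE. Light chains are kappa (Igkc) or lambda (Iglc genes). T cells rearrange the related T cell receptor genes instead, while B cells and plasma cells are the known sources of antibody. Constant region genes can also be transcribed without a rearranged variable gene.

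In these libraries, total counts ranged from 25792975 to 32971791. The cultures carried the T cell genes Cd4, the coreceptor of helper T cells, at 820 to 897 CPM (counts scaled to a library of 1000000) and Cd3e, a chain of the T cell receptor complex, at 461 to 537 CPM. The 3 EKO_exo libraries stood apart from the rest in detection: 19289, 19518 and 19038 genes had a count, against 19989 to 20568 in the other 6. Pairs of EKO_exo libraries had a chi-square of 6.75 to 9.54 for each degree of freedom when their counts were compared over genes, and pairs within PBS or WT_exo one of 5.21 to 6.16. Every pair thus differed beyond counting error. Values of EKO_exo without each of its libraries in turn are given beside the main results below.

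The sequences on which the results turn are shown first, read from GENCODE M21 transcripts on GRCm38, 5′ to 3′. Reads from near-identical genes can be counted for either copy, so the sharing between genes decides how far a count belongs to 1 gene. Ighg2c, which encodes the constant region of IgG2c, is shown with the other IgG genes over the first 60 coding bases of each, capitals marking bases that differ from Ighg2c. These stretches lie on the minus strand at chr12:113288873-113288932 for Ighg2c, chr12:113307874-113307933 for Ighg2b, chr12:113330464-113330523 for Ighg1 and chr12:113361173-113361232 for Ighg3.
Ighg2c: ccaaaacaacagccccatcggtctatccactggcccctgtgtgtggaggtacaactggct
Ighg2b: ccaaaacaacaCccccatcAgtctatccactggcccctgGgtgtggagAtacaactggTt
Ighg1: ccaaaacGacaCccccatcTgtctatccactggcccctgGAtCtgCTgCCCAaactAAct
Ighg3: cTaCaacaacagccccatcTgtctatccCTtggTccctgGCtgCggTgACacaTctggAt
Ighg2b differs from Ighg2c at 5 of these bases, and Ighg1 and Ighg3 at 14 each. Over whole transcripts, 5.49% of the 50-base windows of Ighg2c also occur in another gene, in each case Ighg2b.

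The kappa constant gene Igkc is a single copy, at chr6:70726435-70726966 on the plus strand, and Ighm lies on the minus strand at chr12:113418558-113422730. None of their 50-base windows occurs in another annotated transcript. Igkc overlaps the long noncoding RNA Gm30211 on the same strand, which has 30 counts in all. Their first 60 coding bases, at chr6:70726435-70726494 and chr12:113422671-113422730, follow in lower case throughout.
Igkc: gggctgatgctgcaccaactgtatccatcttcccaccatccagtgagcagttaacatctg
Ighm: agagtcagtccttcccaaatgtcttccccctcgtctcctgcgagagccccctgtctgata
The 3 lambda constant genes that were detected are shown over 60 coding bases with capitals where they differ from Iglc3. They lie on the minus strand at chr16:19065622-19065681 (Iglc3), chr16:19198793-19198852 (Iglc2) and chr16:19062012-19062071 (Iglc1).
Iglc3: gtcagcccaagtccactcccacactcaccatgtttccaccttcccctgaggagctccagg
Iglc2: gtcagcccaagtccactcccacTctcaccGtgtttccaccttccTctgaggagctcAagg
Iglc1: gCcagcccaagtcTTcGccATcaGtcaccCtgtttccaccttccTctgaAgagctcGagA
Iglc2 differs from Iglc3 at 4 of these bases and Iglc1 at 12. Iglc2 shares 7.65% and Iglc3 10.7% of its 50-base windows with another gene, and Iglc1 shares none, so counts of Iglc2 and Iglc3 are uncertain between the pair.

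Variable genes are more alike. The ends of the coding part of the 5 variable genes that passed a test below are shown, with capitals on the last in-frame TGT, a cysteine codon near the 3′ end of the segment.
Igkv12-89: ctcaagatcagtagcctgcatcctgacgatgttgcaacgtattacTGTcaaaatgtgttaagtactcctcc
Igkv13-84: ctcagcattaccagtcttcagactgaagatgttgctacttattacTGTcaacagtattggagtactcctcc
Igkv14-126: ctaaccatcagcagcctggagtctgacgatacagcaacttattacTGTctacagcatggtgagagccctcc
Igkv4-53: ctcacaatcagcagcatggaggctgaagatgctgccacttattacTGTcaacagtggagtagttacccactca
Ighv1-26: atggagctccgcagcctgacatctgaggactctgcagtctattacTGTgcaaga
They lie at chr6:68834846-68834916 on the minus strand (Igkv12-89), chr6:68939997-68940067 on the plus strand (Igkv13-84), chr6:67896572-67896642 on the plus strand (Igkv14-126), chr6:69648824-69648896 on the minus strand (Igkv4-53) and chr12:114788372-114788425 on the minus strand (Ighv1-26). Igkv12-89 and Igkv14-126 share no 50-base window with another gene. Igkv13-84 shares 48.3% of its windows, with Igkv13-85, Ighv1-26 shares 49.0% with several Ighv1 genes, and Igkv4-53 shares 39.6% with other Igkv4 genes, so the counts of these 3 are uncertain between copies. Over all 152 variable genes, the median share was 20.9% for heavy and 27.3% for kappa genes, and it reached 74.3%.

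Constant genes carried most of the immunoglobulin counts, and Ighm alone 63.2% of them. The 8 heavy constant genes had 126185 counts over the 9 libraries, 94.5% of them in Ighm, and the 73 heavy variable genes had 10756. At the kappa locus Igkc had 28762 counts and 76 variable genes 17933. The lambda locus had 2019 counts in 3 constant genes and 3107 in 3 variable genes. All members together made up 0.062% to 0.078% of the counts of a library. In bulk RNA, fewer cells of a type and less RNA per cell cannot be told apart, so none of these levels is a number of cells.

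**Figure D1:**
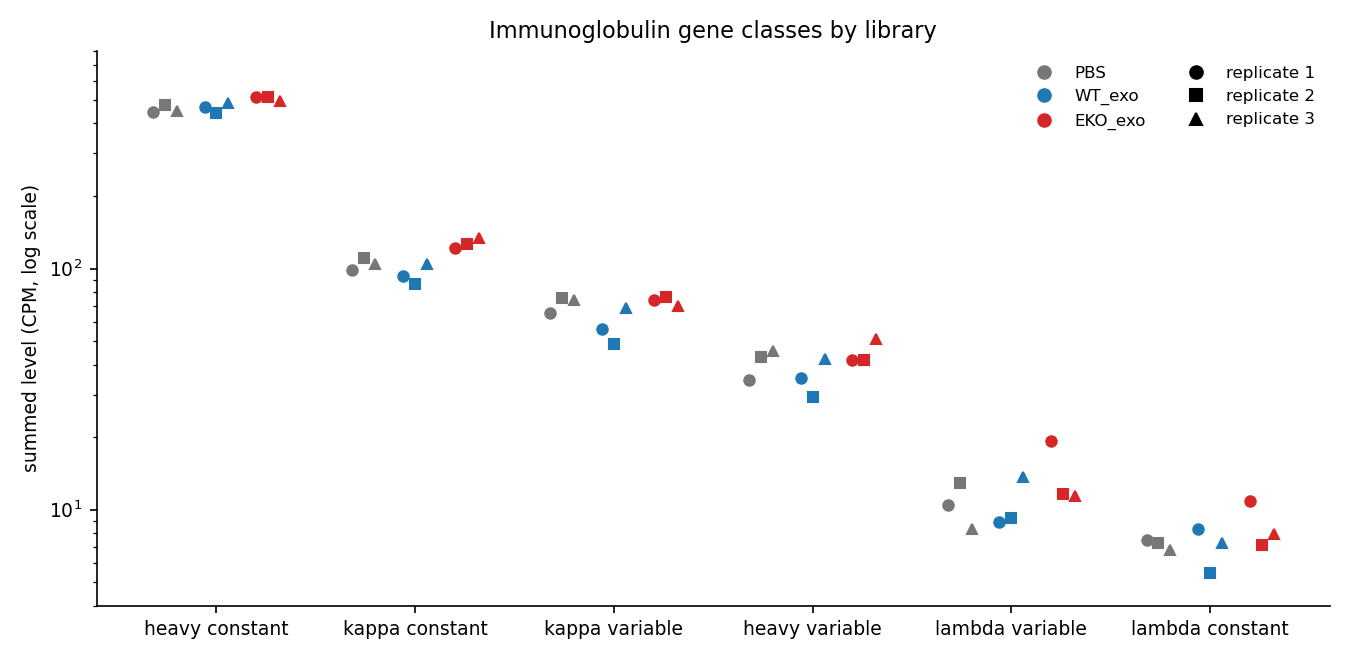
Summed level of each class of immunoglobulin genes in each library (CPM, log axis). Colours are the 3 groups and symbols the replicates. Heavy constant genes lie between 441 and 514 CPM in all 9 libraries and the lambda classes below 20 CPM, and for kappa constant the 3 EKO_exo libraries lie above the other 6.

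Summed over all members, EKO_exo libraries had 782, 778 and 769 CPM, PBS libraries 661, 725 and 689 CPM, and WT_exo libraries 669, 620 and 721 CPM. The EKO_exo libraries lay above the other 6, and PBS and WT_exo overlapped. Without Ighm and Igkc, EKO_exo libraries had 178, 167 and 166 CPM and PBS libraries 144, 166 and 167 CPM, which overlapped. WT_exo libraries had 131, 114 and 150 CPM, below EKO_exo. As a log2 ratio of group means over all members, EKO_exo was at 0.17 and WT_exo at -0.05 against PBS. For EKO_exo against WT_exo it was 0.21, where the spread within groups was 0.074 (pooled SD of log2). Without any one EKO_exo library the ratios were 0.16 to 0.17 against PBS and 0.21 to 0.22 against WT_exo. Sums of classes were not tested, since with 3 libraries against 3 an exact two-sided permutation test cannot go below p = 0.10.

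By class, heavy constant genes summed to 514, 514 and 495 CPM in EKO_exo, 445, 475 and 450 CPM in PBS and 468, 441 and 485 CPM in WT_exo. The EKO_exo libraries again lay highest. Heavy variable genes summed to 41.9, 41.7 and 51.2 CPM in EKO_exo, 34.7, 43.2 and 45.4 CPM in PBS and 35.1, 29.4 and 42.0 CPM in WT_exo, and these ranges overlapped. Kappa variable genes summed to 74.2, 76.4 and 70.2 CPM in EKO_exo, 65.2, 75.5 and 74.3 CPM in PBS and 56.4, 48.7 and 68.8 CPM in WT_exo. EKO_exo and PBS overlapped there, and WT_exo replicates 1 and 2 were the lowest of the 9, with replicate 3 inside the PBS range.

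Lambda genes were rarer. Their constant genes summed to 10.8, 7.13 and 7.94 CPM in EKO_exo, 7.5, 7.3 and 6.82 CPM in PBS and 8.31, 5.44 and 7.31 CPM in WT_exo. Their variable genes summed to 19.2, 11.7 and 11.4 CPM in EKO_exo, 10.49, 12.96 and 8.29 CPM in PBS and 8.86, 9.21 and 13.6 CPM in WT_exo. EKO_exo replicate 1 was the highest library in both sums, and the groups overlapped in both. Of light chain counts, lambda made up 9.17 ± 1.19% in PBS cultures, 10.3 ± 0.505% with WT_exo, and 10.2 ± 2.74% with EKO_exo (SD, n = 3 each), differences smaller than the spread between EKO_exo libraries. The difference of EKO_exo from PBS was 0.99 percentage points, and -0.59 without EKO_exo replicate 1.

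Set against length, the balance of variable and constant genes differed between loci. Per kb of annotated exon, heavy variable genes had 0.342 to 0.528 of the level of heavy constant genes over the 9 libraries. For kappa the ratio was 0.766 to 1.03, and for lambda 1.41 to 2.45, so the order of the loci was the same in every library. These ratios rest on annotated exon lengths and on how reads over a V-J junction or a mutated segment were counted, which the sources used here do not give.

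Within the kappa locus, PBS libraries had ratios of 0.969, 0.985 and 1.03 (variable to constant level per kb), WT_exo libraries 0.876, 0.813 and 0.955, and EKO_exo libraries 0.890, 0.873 and 0.766. Both exosome groups lay below PBS in every library, and overlapped with each other. The sums behind the ratio differed: in EKO_exo the mean of Igkc was higher than in PBS and that of the variable sum close to it (73.6 ± 3.13 against 71.7 ± 5.62 CPM, SD, n = 3 each), while in WT_exo the mean of the variable sum was lower (58.0 ± 10.1 CPM). For the heavy locus PBS had a ratio of 0.461 ± 0.055, WT_exo of 0.392 ± 0.052 and EKO_exo of 0.456 ± 0.062, and for lambda 1.95 ± 0.352, 2.06 ± 0.571 and 2.11 ± 0.26, each group overlapping the others.

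**Figure D2:**
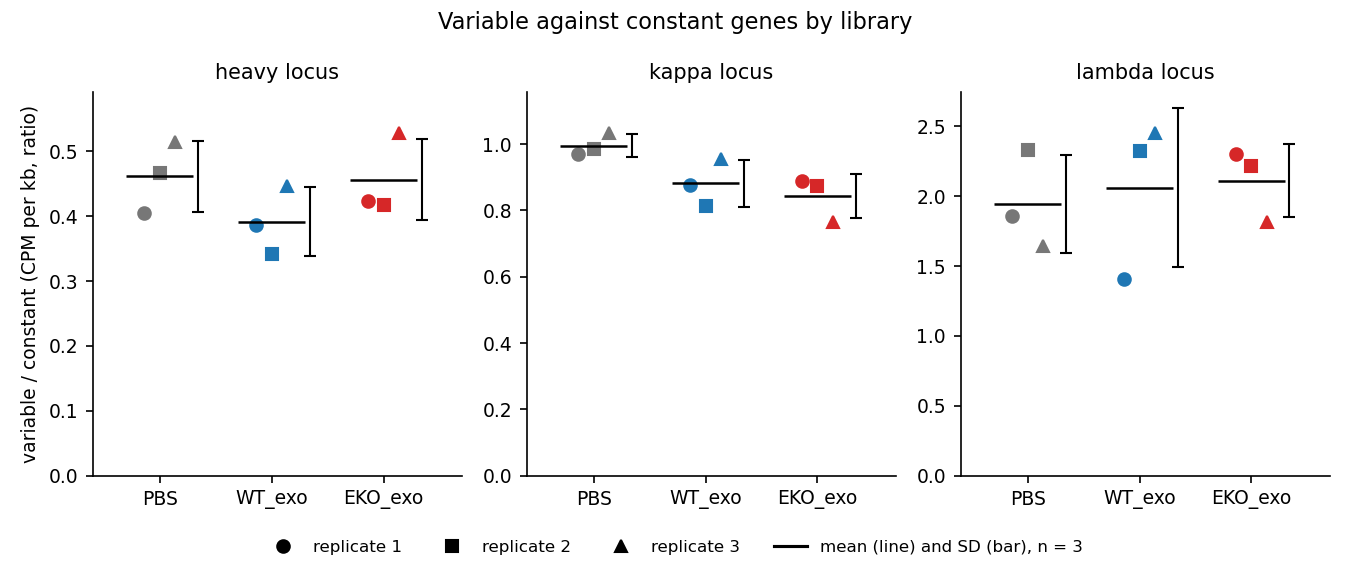
Ratio of the summed variable to the summed constant level, both in CPM per kb of exon, for the heavy, kappa and lambda locus in each library (points), with group mean and SD (n = 3). In the kappa panel all 3 PBS libraries (0.969 to 1.03) lie above the 6 exosome libraries (0.766 to 0.955), and in the other panels the groups overlap.

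Of the 164 genes, 117 had enough counts for the test across all 14684 genes, and they held 99.0% of the members' counts. The 47 left out were 46 variable genes and Ighe, with 36 counts, and none of them had more than 122 counts. Groups were compared with edgeR's quasi-likelihood F test and Benjamini-Hochberg adjustment over all genes tested, and a gene was called at an adjusted p under 0.05. EKO_exo against PBS and WT_exo against PBS share the PBS libraries, so their values are set side by side and not as independent results.

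Igkc was higher with exosomes of ApoE-deficient BMDM than in either other group. It had 121, 127 and 133 CPM in EKO_exo, 98.2, 111 and 105 CPM in PBS and 92.8, 86.5 and 104 CPM in WT_exo. The lowest EKO_exo library lay above the highest of the other 6, and PBS and WT_exo overlapped. The log2 fold change was 0.28 ± 0.060 (SE) for EKO_exo against PBS (edgeR adjusted p = 0.0046) and 0.43 ± 0.061 for EKO_exo against WT_exo (adjusted p = 0.00219). For WT_exo against PBS it was -0.15 ± 0.061, which did not pass the test (adjusted p = 0.214).

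The call of Igkc held without any one EKO_exo library, at 0.24 to 0.31 against PBS and 0.39 to 0.46 against WT_exo. It was lost against PBS without PBS replicate 1, the lowest PBS library (0.24, edgeR adjusted p = 0.0569). Against WT_exo it was lost without WT_exo replicate 1 (0.41, adjusted p = 0.0538) or replicate 2 (0.37, adjusted p = 0.06).

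Ighm rose in EKO_exo against PBS. Its level was 482, 484 and 470 CPM in EKO_exo, 418, 448 and 417 CPM in PBS and 446, 419 and 467 CPM in WT_exo. EKO_exo lay above both other groups, narrowly so above WT_exo replicate 3, and PBS and WT_exo overlapped. Against PBS the log2 fold change was 0.16 ± 0.037 (SE, edgeR adjusted p = 0.00795), and it was 0.15 to 0.18 without any one EKO_exo library. The call was lost without PBS replicate 1 (adjusted p = 0.0619) or PBS replicate 3 (adjusted p = 0.0545). EKO_exo against WT_exo gave 0.11 ± 0.037 (adjusted p = 0.528) and WT_exo against PBS 0.05 ± 0.037 (adjusted p = 0.549), and neither passed.

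Ighg2c fell in WT_exo. It had 4.53, 4.79 and 2.94 CPM in WT_exo (97 to 140 counts a library), 5.70, 10.7 and 10.5 CPM in PBS and 8.30, 10.1 and 9.63 CPM in EKO_exo. All 3 WT_exo libraries lay below the other 6, and PBS replicate 1 was the nearest to them. The log2 fold change of WT_exo against PBS was -1.14 ± 0.211 (SE, edgeR adjusted p = 0.0009), and it passed the test in all 15 alternatives in which it was tested, at -1.38 to -0.95. EKO_exo against WT_exo gave 1.19 ± 0.212 (adjusted p = 0.0207), but that call was lost in 7 of 14 alternatives. Without EKO_exo replicate 1 the adjusted p was 0.0147, without replicate 2 it was 0.116, without replicate 3 it was 0.0501, and without WT_exo replicate 1, 2 or 3 it was 0.0842, 0.0643 and 0.352. EKO_exo and PBS overlapped, at 0.06 ± 0.202 (adjusted p = 0.934).

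**Figure D3:**
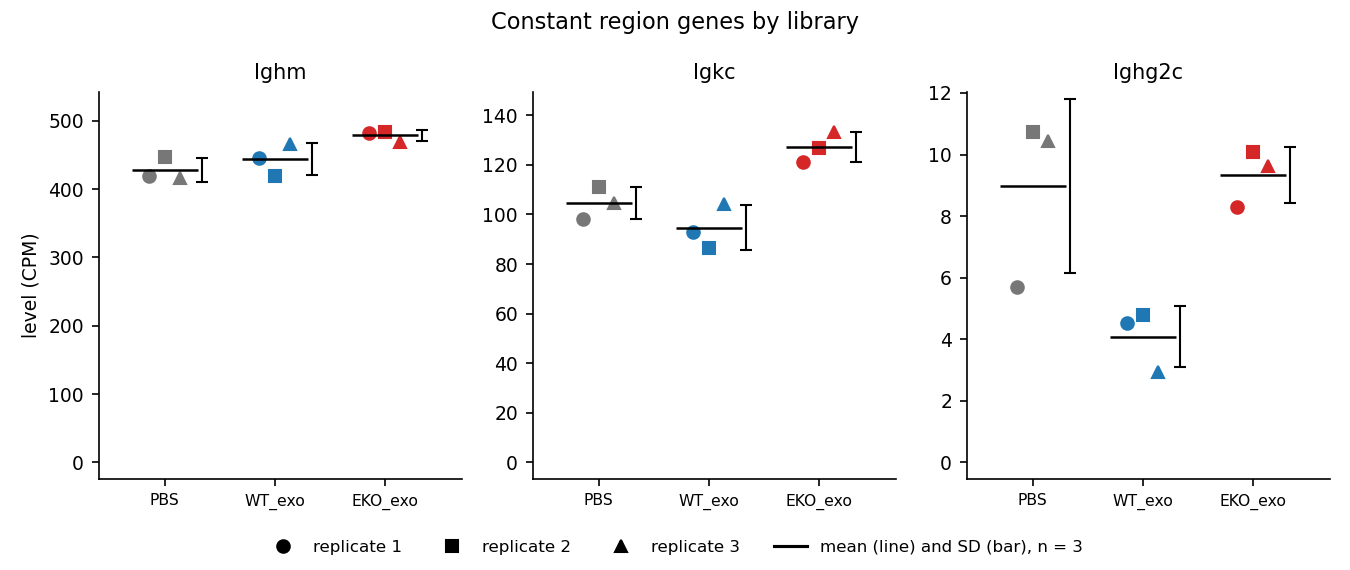
Level (CPM) of Ighm, Igkc and Ighg2c in each library, with the group mean (line) and SD (bar, n = 3). EKO_exo lies highest for Igkc (121 to 133 CPM) and Ighm (470 to 484 CPM), and WT_exo lies lowest for Ighg2c (2.94 to 4.79 CPM).

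The other heavy constant genes did not pass in any comparison. Ighg2b, for IgG2b, had 15.001, 8.014 and 9.21 CPM in PBS, 6.82, 9.04 and 4.76 CPM in WT_exo and 9.90, 4.73 and 8.47 CPM in EKO_exo. Its groups overlapped, and WT_exo against PBS gave -0.65 ± 0.236 (edgeR adjusted p = 0.132). Ighg3 ranged from 0.764 to 5.56 CPM and Ighd from 1.70 to 4.24 CPM over the 9 libraries.

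Igha and Ighg1 had the highest spread within groups of the 7 tested heavy constant genes (chi-square per degree of freedom 56.5 and 38.9). Igha, for IgA, had 6.82 CPM in EKO_exo replicate 2, 5.28 times the median of the other 8 libraries, and 0.308 CPM in WT_exo replicate 2. Ighg1 was at 0 in WT_exo replicate 2 and at 3.33 CPM in WT_exo replicate 1. Igha against PBS was at 0.81 ± 0.612 in EKO_exo and -0.50 ± 0.631 in WT_exo. The switched classes together (IgG, IgA and IgE) made up 5.80 ± 0.935% of heavy constant counts in PBS, 5.15 ± 0.434% in EKO_exo and 3.85 ± 0.628% in WT_exo (SD, n = 3 each). Every WT_exo library (3.13% to 4.27%) lay below the other 6 (4.65% to 6.88%), a share that includes Ighg2c. The nearest pair, WT_exo replicate 1 (95% Wilson interval 3.95% to 4.61%) and EKO_exo replicate 3 (4.32% to 5.0%), overlapped within counting error, which is all that these intervals cover.

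No lambda gene passed a test. Iglc1 had 5.10, 2.32 and 5.31 CPM in EKO_exo, 2.82, 2.97 and 2.75 CPM in PBS and 4.11, 1.95 and 3.19 CPM in WT_exo. Iglc2 had 2.73 to 3.15 CPM in PBS, 2.61 to 3.04 CPM in WT_exo and 1.76 to 3.42 CPM in EKO_exo. Iglc3, the least abundant of the 3, had 0.685 to 2.32 CPM over the libraries. Iglv1 and Iglv2, the main lambda variable genes, were at 0.43 ± 0.215 and 0.54 ± 0.26 for EKO_exo against PBS (edgeR adjusted p = 0.312 and 0.288), and EKO_exo replicate 1 was the highest library for both (10.1 and 7.45 CPM). Iglv3 had a mean of 0.777 CPM and was at 0 in EKO_exo replicate 2.

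Counting over classes, 2 of 117 tested members (1.71%) were called in EKO_exo against PBS, both higher, Igkc and Ighm. The background was 5.08% of all genes tested, 746 of 14684. In WT_exo against PBS 6 members (5.13%) were called, all lower, where 4.97% of all genes were called (730). They were Ighg2c, Igkv12-89, Igkv13-84, Igkv14-126, Igkv4-53 and Ighv1-26. All genes tested were deeper, with a median total count of 4989 against 207 for tested members. Of the 5602 tested genes in the count range of variable members, 5 were called higher and 25 lower in EKO_exo against PBS. In WT_exo against PBS 6 of these genes were called higher and 28 lower. Of the 106 tested variable members, 0 were called in EKO_exo against PBS and 5 in WT_exo against PBS, all lower. In EKO_exo against WT_exo 2 members (1.71%) were called, Igkc and Ighg2c, where 0.0341% of all genes were called. That is 5 genes in the whole table, the other 3 being B2m, mt-Nd4 and Tpt1.

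Over tested members, EKO_exo against PBS had a median log2 fold change of 0.13 (66 of 117 above 0), WT_exo against PBS one of -0.15 (46 above 0) and EKO_exo against WT_exo one of 0.34 (82 above 0). Over all genes tested the medians were 0.00 in each, with 7344, 7459 and 7421 of 14684 above 0. Among the 106 tested variable genes the medians were 0.10, -0.19 and 0.34. The medians are the same with Igkv13-84, which had no count in WT_exo, set to its bound. Without 1 EKO_exo library the median over members was 0.10 to 0.13 against PBS and 0.27 to 0.38 against WT_exo. T cell receptor variable genes, 81 of which were tested, had medians of -0.04, -0.01 and 0.00.

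In EKO_exo against PBS 6 members (5.13%) had groups that did not overlap and were higher, and 3 (2.56%) were lower, against 9.94% and 10.6% of all genes. In WT_exo against PBS 3 members (2.56%) were higher without overlap, where 10.6% of all genes were, and 14 (12.0%) were lower, where 11.6% of all genes were. In EKO_exo against WT_exo 13 members (11.1%) were higher and 2 (1.71%) lower without overlap, against 5.88% and 5.97% of all genes. Of the 5602 tested genes in the count range of variable members, 283 were higher and 410 lower without overlap in EKO_exo against PBS. In WT_exo against PBS these were 298 and 435, and in EKO_exo against WT_exo 274 and 309. For the 106 tested variable members they were 4 and 3, 3 and 13, and 10 and 2 in that order. These shares and counts describe the genes tested and carry no test. With 2 EKO_exo libraries in place of 3, fewer values have to be clear of the other group, and 10 to 13 members were higher and 6 to 13 lower than PBS without overlap, and 20 to 23 higher and 4 to 5 lower than WT_exo.

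**Figure D4:**
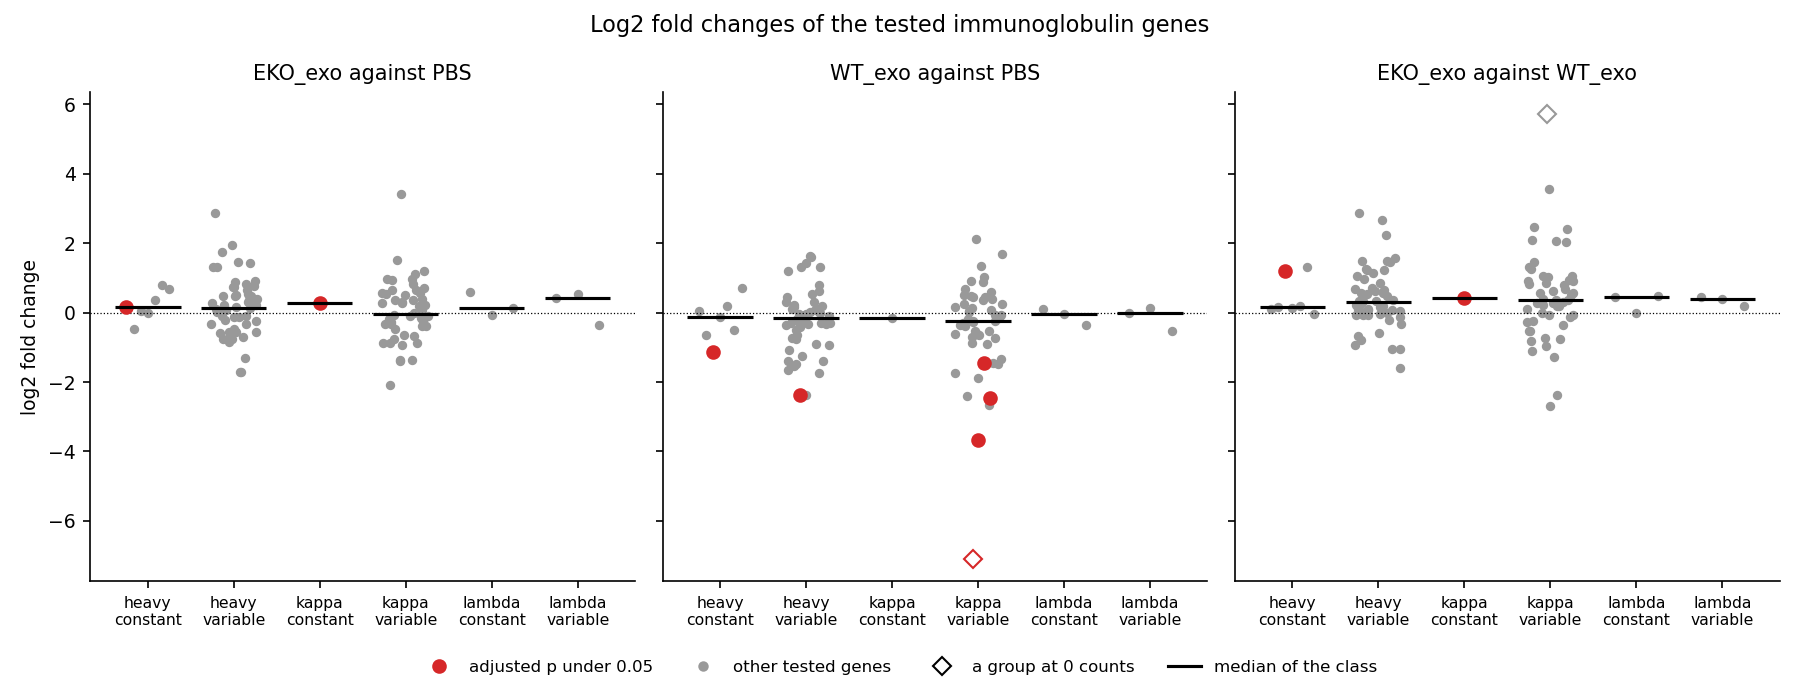
Log2 fold change of each of the 117 tested immunoglobulin genes by class in the 3 comparisons. Points are genes, red where the edgeR adjusted p is under 0.05, and lines are class medians. Open diamonds mark Igkv13-84, at 0 counts in WT_exo, whose fitted value is no measure of size. Heavy and kappa variable genes scatter widely around class medians of -0.24 to 0.37, and the called genes are 2 in EKO_exo against PBS, 6 in WT_exo against PBS and 2 in EKO_exo against WT_exo.

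Of the 5 variable genes lower in WT_exo than in PBS, 4 were kappa genes. Variable genes encode most of the antigen-binding part of an antibody chain. Igkv12-89 had 0.951, 3.07 and 0.688 CPM in PBS, 0.259, 0.103 and 0 CPM in WT_exo and 1.959, 1.201 and 1.196 CPM in EKO_exo. WT_exo lay below both other groups, on 11 counts in all against 138 in PBS, and PBS replicate 2 was 3.75 times the median of the other 8 libraries. The log2 fold change against PBS was -3.67 ± 0.735 (SE, edgeR adjusted p = 0.00207), and the call was lost without PBS replicate 2 (-2.74, adjusted p = 0.0774).

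Igkv13-84 had 15, 19 and 17 counts in PBS, none in the 3 WT_exo libraries and 5, 0 and 14 in EKO_exo. Against a floor of 3 counts per library it was at least 5.96-fold lower in WT_exo than in PBS (edgeR adjusted p = 0.00621). Igkv13-84 passed the count filter through its PBS libraries, the higher group of this comparison, so that p-value is not free of the selection. With no filter beyond 15 counts the edgeR adjusted p was 0.0131. The call was lost without any one WT_exo library, with an adjusted p of up to 0.0567. Its overlap in sequence with Igkv13-85, given above, leaves the gene of origin uncertain.

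Igkv14-126 had 2.89, 2.18 and 4.52 CPM in PBS, 0.906, 1.10 and 1.49 CPM in WT_exo and 1.89, 3.64 and 0.697 CPM in EKO_exo. WT_exo lay below PBS without overlap, at -1.45 ± 0.424 (edgeR adjusted p = 0.0425), and EKO_exo spanned both. Igkv4-53 had 0.810, 2.08 and 0.885 CPM in PBS, 0.582, 0.068 and 0.030 CPM in WT_exo and 0.784, 0.891 and 1.196 CPM in EKO_exo. It was at -2.45 ± 0.729 against PBS (adjusted p = 0.0477). Both calls were lost in 8 of 13 alternatives, with an adjusted p of up to 0.243 for Igkv14-126 without PBS replicate 3 and 0.352 for Igkv4-53 without PBS replicate 2.

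Ighv1-26, the heavy variable gene among them, had 1.51, 0.614 and 1.31 CPM in PBS, 0.194, 0.342 and 0.121 CPM in WT_exo and 1.82, 0.852 and 1.56 CPM in EKO_exo. WT_exo was lowest without overlap, at -2.38 ± 0.602 against PBS (edgeR adjusted p = 0.0164). The call was lost without PBS replicate 1 (adjusted p = 0.101) or 3 (0.0551), or without WT_exo replicate 1 (0.0712) or 3 (0.0932). None of the 5 variable genes passed in EKO_exo against WT_exo, where the edgeR adjusted p ranged from 0.0984 for Igkv12-89 to 0.73 for Igkv14-126.

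**Figure D5:**
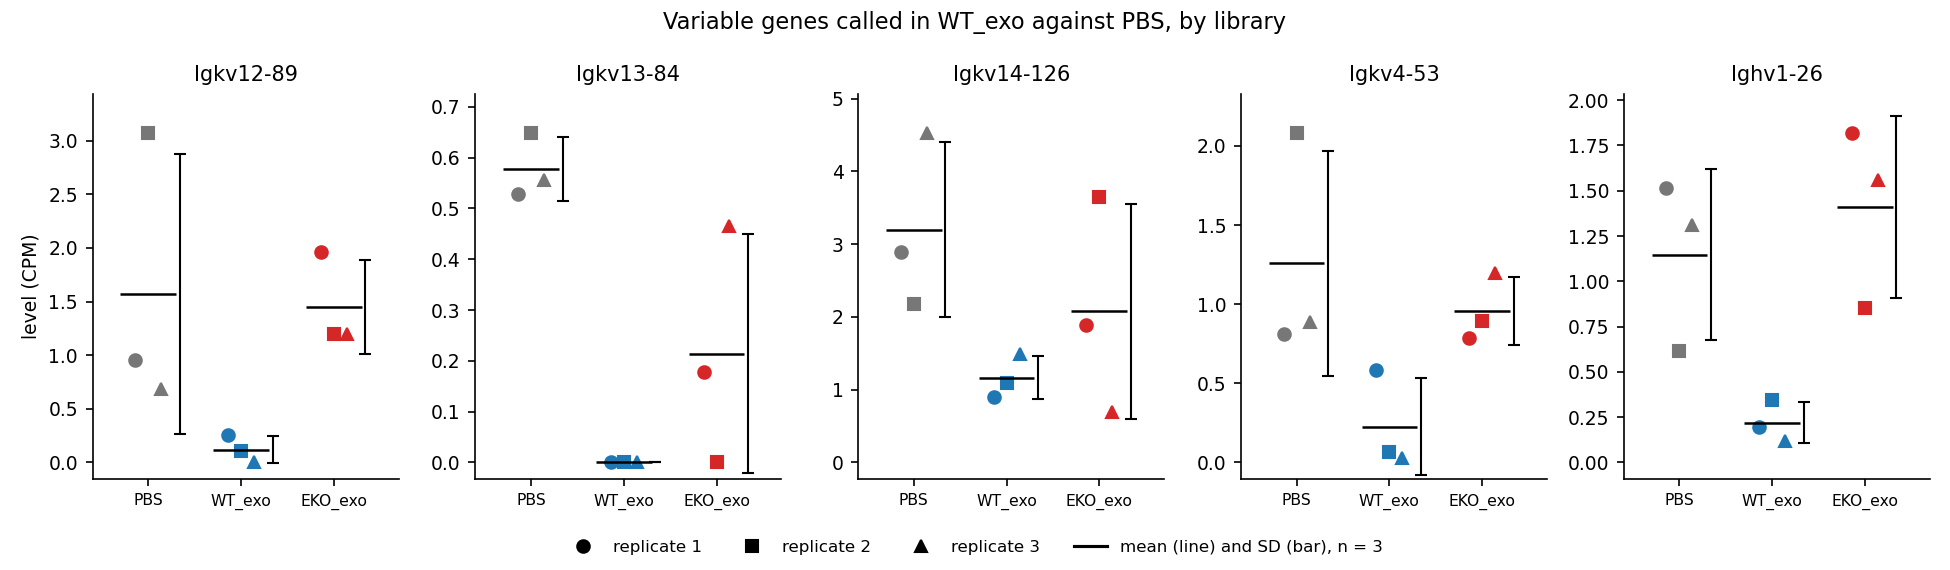
Level (CPM) of the 5 variable genes called in WT_exo against PBS, in each library, with the group mean (line) and SD (bar, n = 3). In each panel the 3 WT_exo libraries lie below the 3 PBS libraries, and for Igkv13-84 they are at 0.

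The most abundant variable genes did not pass in any comparison. At the kappa locus these were Igkv5-39 (mean 7.15 CPM), Igkv15-103 (4.47), Igkv8-27 (3.41), Igkv8-24 (2.98), Igkv8-30 (2.74) and Igkv1-135 (2.65). Igkv5-39 had 1.78 CPM in WT_exo replicate 2 and 4.14 to 9.86 CPM in the other libraries. Igkv15-103 had 10.5 CPM in EKO_exo replicate 1 and 2.04 to 6.45 CPM in the others. Igkv8-24 had 2.74 to 5.85 CPM in EKO_exo and 1.84 to 2.40 CPM in WT_exo, groups that did not overlap, at 0.93 ± 0.301 (edgeR adjusted p = 0.468).

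At the heavy locus the most abundant were Ighv7-3 (2.58 CPM), Ighv6-3 (1.95), Ighv7-1 (1.66), Ighv10-1 (1.55), Ighv6-6 (1.41) and Ighv1-80 (1.33). Ighv10-1 had 2.74, 2.32 and 2.06 CPM in EKO_exo, 1.73, 1.47 and 0.623 CPM in PBS and 1.10, 0.685 and 1.21 CPM in WT_exo. EKO_exo overlapped neither group, at 0.90 ± 0.409 against PBS (edgeR adjusted p = 0.246) and 1.24 ± 0.414 against WT_exo (adjusted p = 0.512). Ighv1-80 was at 0 in EKO_exo replicate 1 and at 2.94 CPM in WT_exo replicate 1.

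Variable genes varied much between libraries of a group. Over the 106 tested variable genes the median chi-square per degree of freedom within groups was 9.69, against 4.27 for the 5602 tested genes in the same range of total count and 4.59 for T cell receptor variable genes. The depths were not matched: the median total count was 181.5 for the tested variable members, 241 for the genes in their range and 348 for tested T cell receptor variable genes, and the part of depth in the contrast was not tested. Their median dispersion corresponds to a variation of 54.4% between libraries, against 40.9% for the genes in the count range and 34.0% for T cell receptor variable genes. Of the tested variable genes 45.3% had at least 1 library at 0, against 13.2% and 7.4%. For Igkc the variation was 5.1%. These are descriptions across genes, which are not independent replicates.

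Single libraries carried some of the largest values. Among members with a mean of at least 1 CPM, Ighv1-82 had 4.49 CPM in PBS replicate 3, 12.8 times the median of the other 8 libraries (0.351 CPM). Igkv14-111 had 4.04 CPM in WT_exo replicate 1, 4.08 times that of the others. The heavy variable genes with a count numbered 53 to 62 of 73 in a library, and the top gene took 4.9% to 11.5% of heavy variable counts. For kappa, 53 to 65 of 76 genes had a count, and the top gene took 6.3% to 14.3%. The effective number of genes, the inverse of the summed squared shares, was 23.5 to 40.2 for heavy and 20.5 to 30.6 for kappa. For T cell receptor variable genes it was 21.3 to 25.2, on 8613 to 11462 counts a library, where heavy variable genes had 858 to 1541 and kappa variable genes 1422 to 2267.

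By family, Ighv1, the largest, had 33 members and 35.2% of heavy variable counts, at 38.1% in PBS, 33.3% in WT_exo and 34.0% in EKO_exo. Igkv8 (9 members) had 19.1% of kappa variable counts, at 19.3%, 19.1% and 18.8%. Iglv1 had 55.3% of lambda variable counts, Iglv2 38.1% and Iglv3 6.6%. Zero counts were common where the other libraries had reads: a member was at 0 in a library against 10 or more counts projected from the other 8 in 42 cases, 41 of them variable genes. Over all genes there were 442 such cases, 73, 36 and 144 in EKO_exo replicates 1, 2 and 3 and 25 to 53 in each of the other 6. Whether these zeros move the calls above was not tested.

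Markers of B cells were low beside the immunoglobulin genes. Per kb, Ighm had 221 to 257 CPM and Igkc 163 to 251 CPM over the libraries. Cd79a, a signalling chain of the B cell receptor, had 0.52 to 1.23 CPM per kb, and Cd4 203 to 223. Cd79a, its partner chain gene Cd79b and Ms4a1, which encodes CD20, summed to 1.89, 2.4 and 4.38 CPM in EKO_exo, 3.13, 3.75 and 3.57 CPM in PBS and 3.46, 3.22 and 2.55 CPM in WT_exo. The groups overlapped, and none of the 3 genes passed in any comparison. For EKO_exo against PBS, Cd79a was at 0.07 ± 0.477 and Cd79b at -0.58 ± 0.425, with standard errors larger than the change of Igkc.

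Of the list of 28 B cell identity and signalling genes, 27 are in the table and 22 were tested. None was at 0 in all libraries. Of all 14684 genes tested, 325 were called higher and 421 lower in EKO_exo against PBS, and 269 higher and 461 lower in WT_exo against PBS. In EKO_exo against PBS 3 rose and none fell: Pou2f2, a transcription factor of lymphocytes (0.24 ± 0.046), Cd74, the invariant chain of MHC class II (0.18 ± 0.053), and the transcription factor gene Bach2 (0.12 ± 0.036). The same 3 rose in WT_exo against PBS (0.18, 0.18 and 0.15), the PBS libraries being shared, and none passed in EKO_exo against WT_exo. Against PBS, Pou2f2 in EKO_exo kept its call without any one library (0.20 to 0.26 without an EKO_exo library), while Cd74 and Bach2 each lost theirs in 8 of 9 such fits (edgeR adjusted p up to 0.166 and 0.203). In WT_exo each of the 3 was lost without at least 3 libraries (adjusted p up to 0.195). The list summed to 747 to 775 CPM in EKO_exo, 751 to 777 CPM in WT_exo and 668 to 707 CPM in PBS. It moved with Igkc and Ighm in EKO_exo against PBS, and was as high in WT_exo, where Igkc and Ighm were not called. The part of B cells in the changes of immunoglobulin genes was not tested.

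Of 16 genes of plasma cells and antibody secretion, 15 are in the table and 14 were tested. In WT_exo against PBS 1 rose, the transcription factor gene Irf4 (0.13 ± 0.026, edgeR adjusted p = 0.0025), and none passed in the other comparisons. Irf4 had 2134 to 2434 CPM over the libraries, and the part of plasma cells in its rise was not tested. Jchain, the joining chain of IgM and IgA, had 9.93 to 14.6 CPM in EKO_exo, 10.3 to 11.5 CPM in PBS and 9.52 to 12.5 CPM in WT_exo. Mzb1, a chaperone of antibody assembly, was at 0 in EKO_exo replicates 1 and 2 and had at most 1.06 CPM. Xbp1 and Prdm1, transcription factors of antibody secretion that activated T cells also express, did not pass in any comparison (for EKO_exo against PBS -0.05 ± 0.043 and -0.22 ± 0.123).

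Of 11 genes of recombination, class switch and the surrogate light chain, 5 were tested and Vpreb2 was at 0 throughout. Exo1, a DNA repair exonuclease, fell by 0.31 in EKO_exo and by 0.35 in WT_exo against PBS on the log2 scale. Of 11 genes for Fc receptors and immunoglobulin transport, 6 were tested and none passed.

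In EKO_exo against PBS 5 of 16 T cell genes rose, where 325 of all 14684 genes tested did. They included Bcl11b (0.27 ± 0.032), Cd247, Tcf7 and Cd3e. In WT_exo against PBS Bcl11b alone rose (0.18 ± 0.032), where 269 of all genes tested did. Without 1 library in turn, Bcl11b in both comparisons and Tcf7 and Cd247 in EKO_exo kept their calls in all 9 fits, and Cd3e and Cd5 lost theirs in 8 of 9 (edgeR adjusted p up to 0.245). In EKO_exo against PBS the other lists had few calls. Eomes rose in the CD8 T cell list (0.44 ± 0.111), and Csf1r, the receptor of macrophage growth factor (1.38 ± 0.412), and Ctss rose in the macrophage list, in which Cd163, Marco and C1qa were at 0 throughout. Car2 of the erythroid list and H2-DMb2 of the MHC class II list fell (by 0.99 and 0.94). In WT_exo against PBS Gzma of the NK cell list fell by 2.40, and S100a9 of the neutrophil list, at 0 in all WT_exo libraries, was called lower. Each of these 7 calls of the CD8 T cell, macrophage, erythroid, MHC class II, NK cell and neutrophil lists was lost in 2 to 8 of the 9 fits without 1 library (edgeR adjusted p up to 0.254). No gene of the dendritic cell or platelet list passed, and no gene of any list passed in EKO_exo against WT_exo. The macrophage list summed to 85.1 to 95.4 CPM in EKO_exo, 71.5 to 85.8 CPM in PBS and 82.4 to 89.8 CPM in WT_exo. Apoe, the gene missing in the donors of EKO_exo, had 14.1 to 19.4 CPM over the libraries and did not pass in any comparison (0.24 ± 0.114 and 0.26 ± 0.113 against PBS). The part of these lists in the immunoglobulin levels was not tested.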

How the data were processed

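The authors deposited raw counts, whole numbers for each gene, for 9 libraries in 3 groups. The submitters' processing notes name the aligner STAR 2.7.5c and the mouse build GRCm38. How reads were counted, with which strand setting and annotation, is not given in the sources used here. Members were matched by Ensembl identifier to GENCODE M21, which uses the same build, and sequence sharing was measured over 50-base windows of its transcripts. Without a stated strand setting, reads of overlapping genes cannot be told apart.

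Differences were tested with edgeR 4.0.16 (R 4.3.3): filterByExpr (minimum count 10, minimum total 15), TMM scaling, 1 model of the 3 groups over all 9 libraries and the quasi-likelihood F test, with 6 residual and 21.1 prior degrees of freedom. CPM use the TMM-scaled library size. The code was tested on simulated counts.

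The members, the 13 gene lists and the rules were chosen with earlier results of these data known. The text names all constant members, the 6 most abundant heavy and kappa variable genes, all lambda variable genes, called members, up to 4 members with the highest ratio of 1 library to the median of the other 8 (among those with a mean of at least 1 CPM), called list genes (up to 4 per comparison), and fixed B cell, plasma cell and T cell genes. Genes at the count minimum, non-member genes called between the exosome groups, and Vpreb2 were named after their values were seen. Some genes that these rules name are not reported here. Alternatives were DESeq2 1.42.0, its size factors, other filters, a replicate block, fits of 2 groups and leaving out each library, which for list genes and for medians and overlap counts of members was added after seeing the data.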

Additional observations from a re-analysis of the deposited data

How the results depend on the processing

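For EKO_exo against PBS, 2 members were called, and leaving out 1 library gave 1 to 3. The 1 call without PBS replicate 1 was not among the 2, and of the 3 without PBS replicate 3 only 1 was. For WT_exo against PBS, 6 were called, and leaving out 1 library gave 3 to 6, with 2 to 6 of the main calls among them. A mean of at least 5 CPM gave 2 (with 6 members tested, 1 of the 2 among the 6 calls) and DESeq2 gave 1 (with an adjusted p for 11 members). For EKO_exo against WT_exo, 2 were called, 0 to 2 when 1 library was left out (0 without WT_exo replicate 2, by edgeR, where 26 members had an unadjusted p under 0.05), and 1 each with no filter beyond 15 counts, with DESeq2 (an adjusted p for 2 members) and with the replicate block. The 1 call without WT_exo replicate 1 was not among the 2. Fitting only the 2 groups compared gave more calls, 3, 8 and 3 in that order. The cause was not tested. Libraries with the same replicate number correlated by -0.074 to 0.016 in their deviations from group means. The highest value, 0.145, was for EKO_exo replicate 1 and PBS replicate 3. These correlations show no pairing by number, but cannot exclude that cultures were paired, which no label states. With the replicate block, 2 members were called for EKO_exo against PBS and 4 for WT_exo against PBS, without Igkv14-126 (edgeR adjusted p = 0.0704) and Igkv4-53 (0.081), and Ighg2c was lost between the exosome groups (0.0769). No log2 fold change of a called member changed sign in any alternative. The log2 ratio of summed immunoglobulin CPM for WT_exo against PBS ranged from -0.10 to 0.01 when 1 library was left out, so its sign depends on the library. Variable genes at about 1 CPM or less rest on few counts a library.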
